A study of Mus musculus with 12 samples.

Results

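The response of cultured fibro/adipogenic progenitors (FAPs) to the growth factor PDGF-AA was compared in cells that had been given an antisense oligonucleotide (AMO) named for a 5' splice site, the 5'ss AMO. The comparison rests on 4 of the 12 arrays of the series, 2 with 5'ss AMO plus PDGF-AA and 2 with 5'ss AMO alone, taken by their titles. Same-numbered arrays were read as pairs, and a change is the log2 level with PDGF-AA minus the level without it, where 1 unit is a 2-fold difference. All 21789 transcript clusters that the platform annotation gives exactly 1 gene symbol were tested, of 35556 clusters in the table, and they stand for 19938 genes.

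FAPs were isolated from uninjured hindlimb muscle of wild-type male C57/Bl6 mice aged 8 to 12 weeks, and each replicate pooled the cells of 2 mice. Cultures grew for 2.5 days, received 10 µM of AMO for 48 hours, and then received 10 µM of the same AMO again for 48 hours, either alone or with PDGF-AA at a dose that the labels write as 50 uM. Every group therefore received an AMO, the reference group of the comparison included. The same 2 treatments, alone and with PDGF-AA, were applied with a control AMO and with a pA AMO, with 2 arrays in each group. RNA (100 ng) was measured on Affymetrix Mouse Gene 1.0 ST arrays, which read transcripts with probes spread along their length.

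PDGF-AA is a dimeric ligand that binds PDGFRα, a receptor tyrosine kinase. Ligand binding brings receptors together, and their kinase domains then start the MAP kinase, PI3 kinase and phospholipase C cascades. In skeletal muscle PDGFRα marks FAPs, mesenchymal cells that support regeneration and can give rise to matrix-producing fibroblasts and to adipocytes. The series is about PDGFRα transcripts that are polyadenylated in an intron and so end before the exons of the kinase domain. Covering a 5' splice site can hinder removal of the intron behind it and leave a polyadenylation signal in that intron in use. The comparison asks what PDGF-AA changed when such an oligonucleotide was present.

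With 5'ss AMO, no gene passed the test for a PDGF-AA change. In limma 0 of 21789 clusters passed at a Benjamini-Hochberg adjusted p under 0.05 (0%), with a smallest adjusted p of 1.00. At an unadjusted p under 0.05 there were 358 clusters (1.64%). With the replicate number as a block 0 passed as well, with a smallest adjusted p of 0.626 and 987 clusters (4.53%) at an unadjusted p under 0.05. The values below are therefore given as levels and differences of 2 pairs, and "higher" and "lower" describe these arrays. The typical standard error of a change was 0.14 (median over clusters). Standard errors and intervals here are from the fit without the replicate block, so they do not use the pairing.

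The replicates resembled each other little in their change. Of all clusters 48.4% changed in the same direction in both pairs. Across clusters, which are not independent replicates, the change in replicate 1 and that in replicate 2 had a correlation of -0.044, against 0.19 with control AMO and 0.12 with pA AMO. The SD of the change over clusters was 0.18 in each of the 5'ss AMO pairs. At least 0.2 higher in both pairs were 330 clusters (1.51%), and at least 0.2 lower in both were 298 (1.37%). The clusters nearest that limit had a smaller change of 0.201 inside and 0.199 outside it on the higher side, and -0.200 on either side of it on the lower. Groups did not overlap, with PDGF-AA above, in 1990 clusters (9.13%) and, with PDGF-AA below, in 2286 (10.5%).

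**Figure D1:**
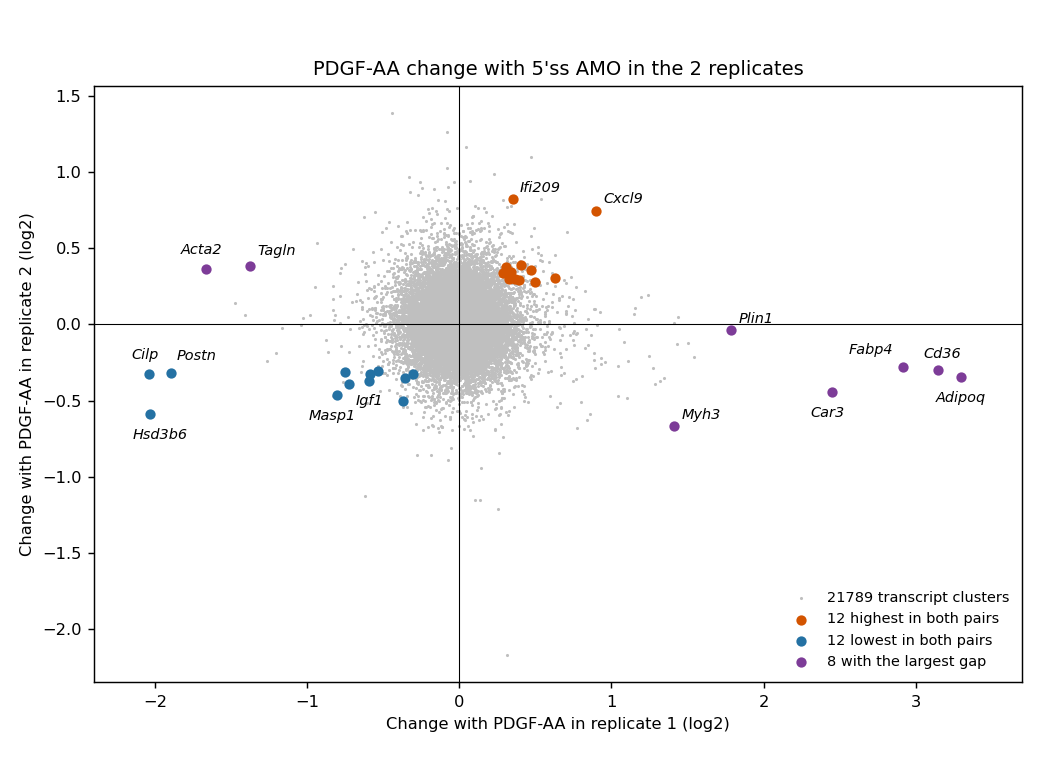
Change with PDGF-AA (log2) in replicate 1 on the x axis and in replicate 2 on the y axis, for 5'ss AMO. Grey points are the 21789 clusters, and coloured points are the 12 genes with the highest and the 12 with the lowest change in both pairs and the 8 with the largest gap between pairs. Most large changes lie along the x axis: 38 clusters changed by at least 1 in replicate 1 and 10 in replicate 2.

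Large changes were seen mainly in replicate 1, where 38 clusters (0.174%) moved by at least 1, against 10 (0.0459%) in replicate 2. The pairs lay at least 1 apart in 91 clusters (0.418%). The array of 5'ss AMO plus PDGF-AA replicate 1 had the highest level of all 12 arrays for 12 of 30 adipocyte genes and the lowest for 26 of 45 cell cycle genes. Over all clusters it was the highest by at least 0.5 for 13 and the lowest by at least 0.5 for 5. On the other 11 arrays these counts ran from 0 to 28 and from 0 to 23. Where 2 values of a change follow a gene or a list, the first is replicate 1 and the second replicate 2. Only the first uses the array of 5'ss AMO plus PDGF-AA replicate 1. Of all clusters, 49.3% changed by more than 0 in replicate 1 and 48% in replicate 2. The FAP markers Pdgfra, Dcn (decorin) and Cd34 lay at 12.84 to 12.92, 13.20 to 13.38 and 11.57 to 11.66 on the 4 arrays. The leukocyte gene Ptprc (4.89 to 5.14) and the endothelial gene Pecam1 (5.44 to 5.77) stayed below 6.10, the mark under which a cluster is called dim here. The muscle regulator Myod1 (6.54 to 7.02) and the adipocyte gene Fabp4 (7.42 to 10.33) lay above it. By their mean over 12 arrays, 16 of 17 FAP markers were above that mark. So were 4 of 15 macrophage and leukocyte genes and 6 of 12 endothelial genes. The same held for 7 of 10 smooth muscle and pericyte, 7 of 10 tendon and 5 of 8 Schwann cell genes. In bulk RNA, fewer cells of a type and less RNA per cell cannot be told apart.

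PDGF receptors and ligands were at nearly the same level with and without PDGF-AA. Pdgfra, the receptor for PDGF-AA, read 12.90 and 12.92 with 5'ss AMO alone and 12.89 and 12.84 with PDGF-AA. Its mean change was -0.048 (SE 0.087, 95% interval -0.24 to 0.15, n = 2 arrays in each group). The cluster combines probes along the gene, so this level does not separate full-length from shortened transcripts. Pdgfrb, the receptor that binds PDGF-BB most strongly, changed by -0.11 and -0.051 in replicates 1 and 2. Pdgfrl, a receptor-like gene without a kinase, went from 9.03 and 8.95 to 8.53 and 9.01, so the pairs differed in direction.

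Of the ligands, Pdgfa was at 8.52 and 8.48 alone and at 8.35 and 8.47 with PDGF-AA. Pdgfb changed by 0.15 and -0.084, and Pdgfc by -0.0075 and -0.20. Pdgfd, whose product binds PDGFRβ after cleavage, changed by -0.11 and 0.040 here, but by 0.31 and 0.38 with control AMO and by 0.44 and 0.24 with pA AMO. The difference between its change with 5'ss AMO and that with control AMO was -0.38 (SE 0.15), which did not pass in limma (adjusted p = 1.00). In all, 1 of 7 genes of this group had a mean change above 0, where 48% of all clusters did, with 1 and 2 of 7 above 0 in replicates 1 and 2, and 0 of 7 passed.

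Genes that carry the receptor's signal and genes that respond to it within hours were close to their level without the ligand at this 48-hour time point. Of 31 receptor signal transducers 15 had a mean change above 0, with a median of -0.0064. In replicates 1 and 2 the medians were 0.017 and -0.030, with 16 and 9 of 31 above 0. The adaptor Nck2 was the highest at 0.49 and -0.093, and the adaptor Grb2 the lowest at -0.13 and -0.15. Gab1, a docking protein, was higher in both pairs (0.21 and 0.095), and the kinase gene Akt1 lower in both (-0.11 and -0.089). None of the 31 reached 0.2 in both pairs.

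Immediate early genes, transcription factors that growth factors switch on transiently, had a median of -0.020, with 12 of 28 above 0. By replicate the medians were -0.040 and -0.020. Egr1 read 9.09 and 9.08 alone and 9.06 and 9.18 with PDGF-AA, and Fos 7.65 and 7.76 alone and 7.57 and 7.71 with it. The arrays with and without the ligand overlapped for both genes. Klf4 was higher in both pairs (0.16 and 0.17). The nuclear receptor gene Nr4a1 was the 1 member at least 0.2 lower in both, at 8.12 and 8.42 alone and 7.82 and 8.21 with PDGF-AA. Myc changed by -0.035 and -0.0014.

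Feedback inhibitors of the MAP kinase pathway had a median of 0.014, with 11 of 20 above 0. The pairs differed, with a median of -0.045 and 7 of 20 above 0 in replicate 1, and 0.055 and 14 of 20 in replicate 2. Dusp6, a phosphatase that inactivates ERK, went from 7.90 and 8.06 to 8.05 and 8.33 and was the highest member. Il17rd, an inhibitor of growth factor signalling, changed by 0.095 and 0.28. Spry2, a receptor tyrosine kinase antagonist, changed by 0.081 and 0.052 here, and by 0.31 with control AMO and 0.34 with pA AMO on average. Dusp4 was at -0.40 and 0.057.

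Among clusters above the dim mark, the genes lower in both pairs included secreted growth regulators and matrix proteins. Igf1, which encodes insulin-like growth factor 1, read 10.23 and 10.19 with 5'ss AMO alone and 9.50 and 9.80 with PDGF-AA. Both arrays with the ligand lay below both without it. The mean change of Igf1 was -0.56 (SE 0.13, 95% interval -0.85 to -0.26, n = 2 arrays in each group). Igf1 was chosen by its change on these arrays, and the interval does not allow for that choice. Masp1, a serine protease of the lectin complement pathway, read 9.02 and 8.80 alone and 8.21 and 8.33 with PDGF-AA, a change of -0.63 (SE 0.20). Pde7b, a phosphodiesterase that breaks down cyclic AMP, read 9.91 on both arrays alone and 9.32 and 9.58 with PDGF-AA. Its change was -0.46 (SE 0.12). These 3 genes did not overlap between groups, where 10.5% of all clusters did not overlap in this direction. The 3 genes were chosen on the same arrays, so that count describes them only. None of the 3 passed in limma (adjusted p = 1.00 for each).

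For 3 further genes most of the difference lay in replicate 1. Hsd3b6, a steroid dehydrogenase, read 8.27 and 7.85 alone and 6.24 and 7.27 with PDGF-AA, a change of -2.03 and -0.59. Cilp, a matrix protein that binds TGF-beta, read 9.71 and 8.96 alone and 7.67 and 8.64 with PDGF-AA, a change of -2.04 and -0.32. Postn, the matrix protein periostin, read 10.59 and 10.66 alone and 8.70 and 10.34 with PDGF-AA, a change of -1.89 and -0.32. The replicate 2 change was thus under 0.6 in size for each, and the mean changes of -1.31, -1.18 and -1.10 had standard errors of 0.38, 0.38 and 0.40.

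The remaining 6 of the 12 lower genes had smaller and more even changes. Ptger3, a prostaglandin E2 receptor, went from 6.70 and 6.99 to 6.33 and 6.49. Egfl6, a secreted EGF-repeat protein, went from 6.84 and 7.16 to 6.25 and 6.78. Prokr1, a prokineticin receptor, changed by -0.36 and -0.35, and Dio2, which activates thyroid hormone, by -0.31 and -0.33. Ptprn was at -0.75 and -0.31. Fibin was at -0.53 and -0.31 and was the only one of the 12 whose groups overlapped (10.5% of all clusters had no overlap in this direction, but these genes were chosen on the same arrays), because its level alone was 6.76 in replicate 1 and 7.12 in replicate 2.

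The 12 genes highest in both pairs included Epas1 and 2 interferon-induced genes. Epas1, which encodes the hypoxia-inducible factor HIF-2α, read 8.65 and 8.82 alone and 9.06 and 9.21 with PDGF-AA. Its change was 0.40 and 0.39 (mean 0.40, SE 0.15, 95% interval 0.064 to 0.73). Epas1 too was chosen by its change on these arrays, which the interval does not allow for. Both arrays with the ligand lay above all of the other 10 arrays of the series, where Epas1 reached 8.84. Cxcl9, a chemokine that interferon-gamma induces, read 7.07 and 8.18 alone and 7.97 and 8.93 with PDGF-AA. The gain was similar in both pairs (0.90 and 0.75), but the groups overlapped and the standard error was 0.58. Ifi209, an interferon-inducible gene, read 5.51 and 5.98 alone and 5.86 and 6.80 with PDGF-AA, also with overlap.

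Adhfe1, a mitochondrial dehydrogenase, read 7.35 and 7.67 alone and 7.97 and 7.98 with PDGF-AA. Gucy1a2, a subunit of soluble guanylate cyclase, changed by 0.33 and 0.30, and Synpo2, an actin-binding protein, by 0.37 and 0.30. Efhd1, a mitochondrial calcium-binding protein, changed by 0.47 and 0.36. Naaladl2, Fam43b, Fam136a, Ccdc180 and Iftap had a smaller change between 0.28 and 0.34. Of the 12, 8 had no overlap between groups, where 9.13% of all clusters had none in this direction. Since the genes were chosen on these arrays, that count describes them only. The 3 clusters with the smallest p over the whole table were all dim. Kcnj14, a potassium channel gene, read 5.11 and 4.96 alone and 4.28 and 4.49 with PDGF-AA, and Rnase2b changed by 0.49 and 0.63. The unnamed transcript 4930548G14Rik changed by 0.59 and 0.41.

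Some of these genes already differed between the AMOs without PDGF-AA. For 6 of the 12 lower genes (Hsd3b6, Masp1, Igf1, Ptger3, Pde7b and Dio2) both arrays with 5'ss AMO alone lay above all 4 arrays with control or pA AMO alone, where 5.52% of the 13073 clusters that were not dim did. Pde7b, for example, read 9.91 there and 9.31 to 9.43 with the other AMOs alone. With PDGF-AA it read 9.32 and 9.58, and 9.44 to 9.71 with the other AMOs and PDGF-AA. For 3 of the 12 higher genes (Cxcl9, Ifi209 and Synpo2) both arrays with 5'ss AMO alone lay below those 4, where 3.01% of the same clusters did. Because these arrays also served to choose the genes, this describes them and tests nothing.

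The PDGF-AA changes with control and pA AMO were not used in choosing the genes. The arrays of these AMOs did enter the mean over 12 arrays by which dim clusters were left out. Of the 12 lower genes, 9 were also lower with PDGF-AA in both control AMO pairs, where 24.9% of all clusters were, and 5 in both pA AMO pairs, where 27.6% were. These shares include dim clusters, although the 12 genes were all above the dim mark. The mean change with control AMO was below 0 in 57.5% of clusters that were not dim, against 46.7% of all. With pA AMO these shares were 46.4% and 52.6%. Egfl6 was at -1.31 and -0.83 with control AMO and at -1.04 and -0.84 with pA AMO. Cilp was at -1.28 and -1.11 and at -0.50 and -1.10, and Igf1 at -0.95 and -0.85 and at -0.30 and -0.39. Igf1, Egfl6, Prokr1 and Cilp were thus lower in all 6 pairs of the series, and so was Ptger3, at -0.43, -0.49, -0.24 and -0.022 outside 5'ss AMO. Hsd3b6, Masp1 and Pde7b were higher in all 4 pairs with the other AMOs; Hsd3b6 was at 0.29 and 0.73 with control AMO and at 0.87 and 1.06 with pA AMO.

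Over all 298 clusters lower in both 5'ss AMO pairs, 44.6% had a mean change below 0 with control AMO, against 46.7% of all clusters, and 52.3% with pA AMO, against 52.6%. Of the 106 that were not dim, 58.5% were below 0 with control AMO, near the 57.5% of all 13073 such clusters, and 41.5% with pA AMO, against 46.4%. The shares thus lay near those of all clusters. Of the 330 higher clusters 60.9% were above 0 with control AMO, against 53.3%, and 38.5% with pA AMO, against 47.4%. Among the 12 higher genes, 2 were higher in both control AMO pairs (Efhd1 and Adhfe1), where 30.9% of all clusters were, and 6 in both pA AMO pairs, where 24.2% were. The 30.9% and 24.2% include dim clusters, although the 12 genes were all above the dim mark.

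**Figure D2:**
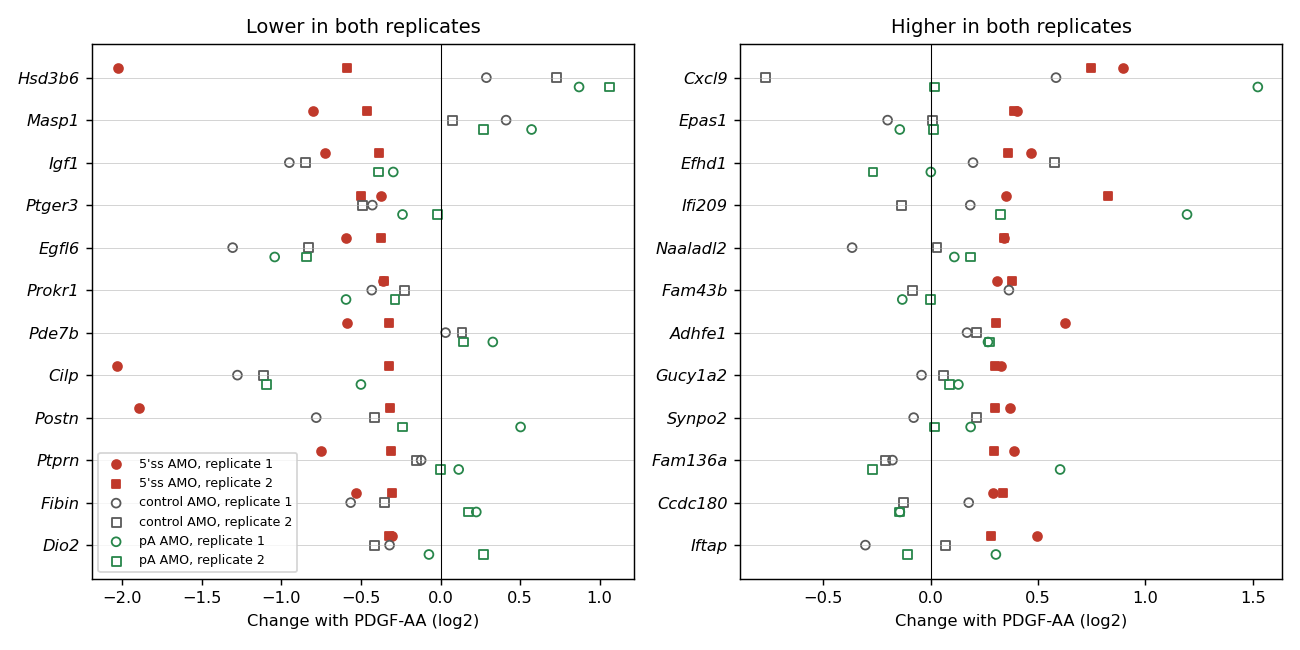
Change with PDGF-AA (log2, x axis) of the 12 lower genes (left) and the 12 higher genes (right), 1 point for each replicate pair. Filled red symbols are 5'ss AMO, open grey symbols control AMO and open green symbols pA AMO; circles are replicate 1 and squares replicate 2. Igf1 and Egfl6 lie left of 0 in all 6 pairs, while Hsd3b6, Masp1 and Pde7b lie left of 0 with 5'ss AMO and right of 0 with the other AMOs.

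Glycolysis and glucose uptake genes were near 0 with 5'ss AMO and above 0 with the other AMOs. Their median change with PDGF-AA was 0.024 with 5'ss AMO, 0.35 with control AMO and 0.27 with pA AMO, where the medians of all clusters were -0.0051, 0.012 and -0.0064. With 5'ss AMO 11 of 18 were above 0, against 16 of 18 and 17 of 18. Of all clusters 48%, 53.3% and 47.4% were above 0 with 5'ss, control and pA AMO. The 5'ss AMO medians by replicate were 0.047 and -0.020. In both pairs, 16 of 18 changed less upward than in the same-numbered control AMO pair, where 28.0% of all clusters did, and 17 of 18 less than in the pA AMO pair, where 26.2% did. Both counts use the same 5'ss AMO arrays. In limma 0 of 18 differences passed in either case, and 9 (from control AMO) and 8 (from pA AMO) had an unadjusted p under 0.05, where 2.95% and 1.92% of all clusters did.

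Slc16a3, which exports lactate, read 9.76 and 9.80 with 5'ss AMO alone and 9.83 and 9.78 with PDGF-AA. With control AMO it read 9.50 and 9.47 alone and 10.12 and 10.09 with PDGF-AA. Its change was 0.60 smaller here than with control AMO (difference -0.60, SE 0.15, 95% interval -0.92 to -0.27). Aldoc, an aldolase, read 7.86 and 8.03 alone and 7.80 on both arrays with PDGF-AA, and differed from its change with control AMO by -0.86 (SE 0.18) and with pA AMO by -0.69 (SE 0.18). Pgk1, phosphoglycerate kinase, was at 0.040 and 0.065, against 0.45 and 0.47 with control AMO. Hk2, a hexokinase, was at -0.12 and 0.17. Pfkfb3, which makes an activator of phosphofructokinase, was the highest member here (0.14 and 0.13), and Eno2, an enolase, the lowest and the 1 member at least 0.2 lower in both (-0.29 and -0.20).

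The arrays without PDGF-AA differed as well. The mean level of the 18 genes was 10.14 and 10.23 with 5'ss AMO alone, above 10.00 and 9.99 with control AMO alone and 9.99 and 10.13 with pA AMO alone. With PDGF-AA it was 10.17 and 10.20, below the 10.27 to 10.38 of the other 4 arrays with PDGF-AA. The 5'ss AMO arrays thus stood between those of the other AMOs alone and with the ligand.

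Hypoxia-inducible genes outside glycolysis had the same pattern. Their median change was -0.0057 with 5'ss AMO, 0.32 with control AMO and 0.27 with pA AMO, with 0.023 and 0.015 in the 5'ss AMO replicates. Without PDGF-AA their mean level was 9.59 and 9.66 with 5'ss AMO, above the 9.41 to 9.56 of the other AMOs. With PDGF-AA it was 9.57 and 9.67, below the 9.71 to 9.84 of the other AMOs. Of these genes 20 and 17 of 24 changed less upward in both pairs than with control and pA AMO, where 28.0% and 26.2% of all clusters did. Both counts use the same 5'ss AMO arrays. Car9, a carbonic anhydrase of the cell surface, read 7.53 and 7.68 alone and 7.34 and 7.66 with PDGF-AA, whereas with control AMO it read 7.14 and 7.43 alone and 8.14 and 8.19 with PDGF-AA. Its change differed from that with control AMO by -0.98 (SE 0.22, 95% interval -1.47 to -0.49) and with pA AMO by -0.89 (SE 0.22), and neither passed in limma (adjusted p = 1.00). Egln3, a prolyl hydroxylase that marks HIF for destruction, was the highest member at 0.28 and 0.14. Plod2, which modifies collagen lysines, was the lowest at -0.28 and -0.20, and Higd1a was at 0.16 and 0.020. Epas1 itself was higher here, as given above, and at -0.20 and 0.0083 with control AMO.

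**Figure D3:**
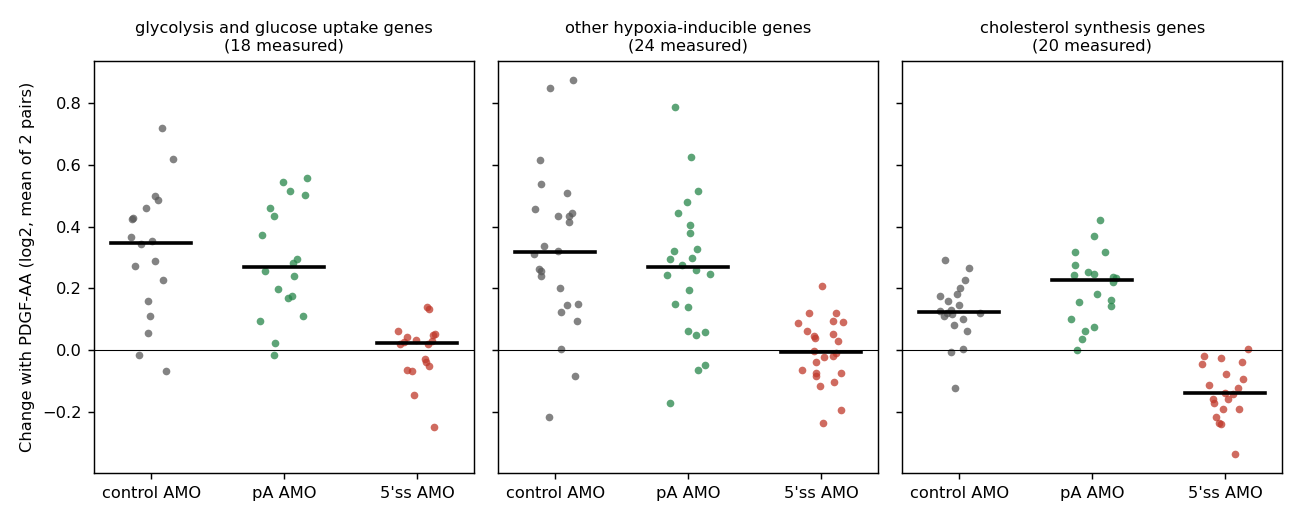
Change with PDGF-AA (log2, mean of 2 pairs, y axis) of each measured gene of 3 lists, by AMO. Points are genes and black bars the medians of the list. With 5'ss AMO the medians are 0.024, -0.0057 and -0.14 for glycolysis, other hypoxia-inducible and cholesterol synthesis genes, below those with control and pA AMO in each list.

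Cholesterol synthesis genes were lower in replicate 1 and near 0 in replicate 2. With 5'ss AMO 19 of 20 had a mean change below 0, where 52% of all clusters did, but the median was -0.29 in replicate 1 and 0.032 in replicate 2, where 13 of 20 were above 0. Lss, lanosterol synthase, read 9.06 and 9.20 alone and 8.67 and 8.92 with PDGF-AA, and Tm7sf2, a sterol reductase, 7.72 and 7.82 alone and 7.47 and 7.59 with PDGF-AA. These were the only 2 members at least 0.2 lower in both pairs. Fdft1, squalene synthase, was at -0.30 and -0.18 and Cyp51 at -0.30 and -0.13, while Sqle, squalene epoxidase, was at -0.46 and 0.12. Srebf2, the transcription factor of the pathway, was at -0.10 and 0.11. With control and pA AMO 18 and 20 of the 20 genes were above 0, and the Lss change differed from that with pA AMO by -0.76 (SE 0.18). That difference did not pass in limma.

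Adipocyte genes were higher with PDGF-AA in replicate 1 and slightly lower in replicate 2 in most members. Adipoq, the hormone adiponectin, read 6.02 and 7.75 alone and 9.31 and 7.41 with PDGF-AA, a change of 3.29 and -0.34. Cd36, a fatty acid transporter, read 6.20 and 7.94 alone and 9.35 and 7.64 with PDGF-AA. Fabp4, a fatty acid binding protein, read 7.42 and 9.05 alone and 10.33 and 8.77 with PDGF-AA. In each case replicate 1 alone was the lowest of the 4 arrays and replicate 1 with PDGF-AA the highest, with both replicate 2 arrays between them. Plin1, which coats lipid droplets, changed by 1.79 and -0.036.

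The replicate 2 cultures had higher levels of these genes than the replicate 1 cultures in every other group. The mean level of the 30 adipocyte genes was 7.72 to 7.92 on the 5 other replicate 1 arrays, 8.14 to 8.32 on the 6 replicate 2 arrays, and 8.59 on the array of 5'ss AMO plus PDGF-AA replicate 1. Over the list 26 of 30 were above 0 in replicate 1 (49.3% of all clusters were) and 13 of 30 in replicate 2 (48%). The medians were 0.32 and -0.048. Pparg and Cebpa, the transcription factors of fat cell differentiation, were at 0.93 and 0.084 and at 0.34 and 0.18, and the lipid droplet gene Plin4 at 1.16 and 0.11. These 3 genes were higher in both pairs with 5'ss AMO and lower in all 4 pairs with the other AMOs. Gpd1 (1.54 and -0.21) and Lipe (1.11 and -0.24), enzymes of glycerol phosphate synthesis and of lipolysis, followed the pattern of Adipoq, and Pck1 was the lowest member at -0.012 and -0.23.

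**Figure D4:**
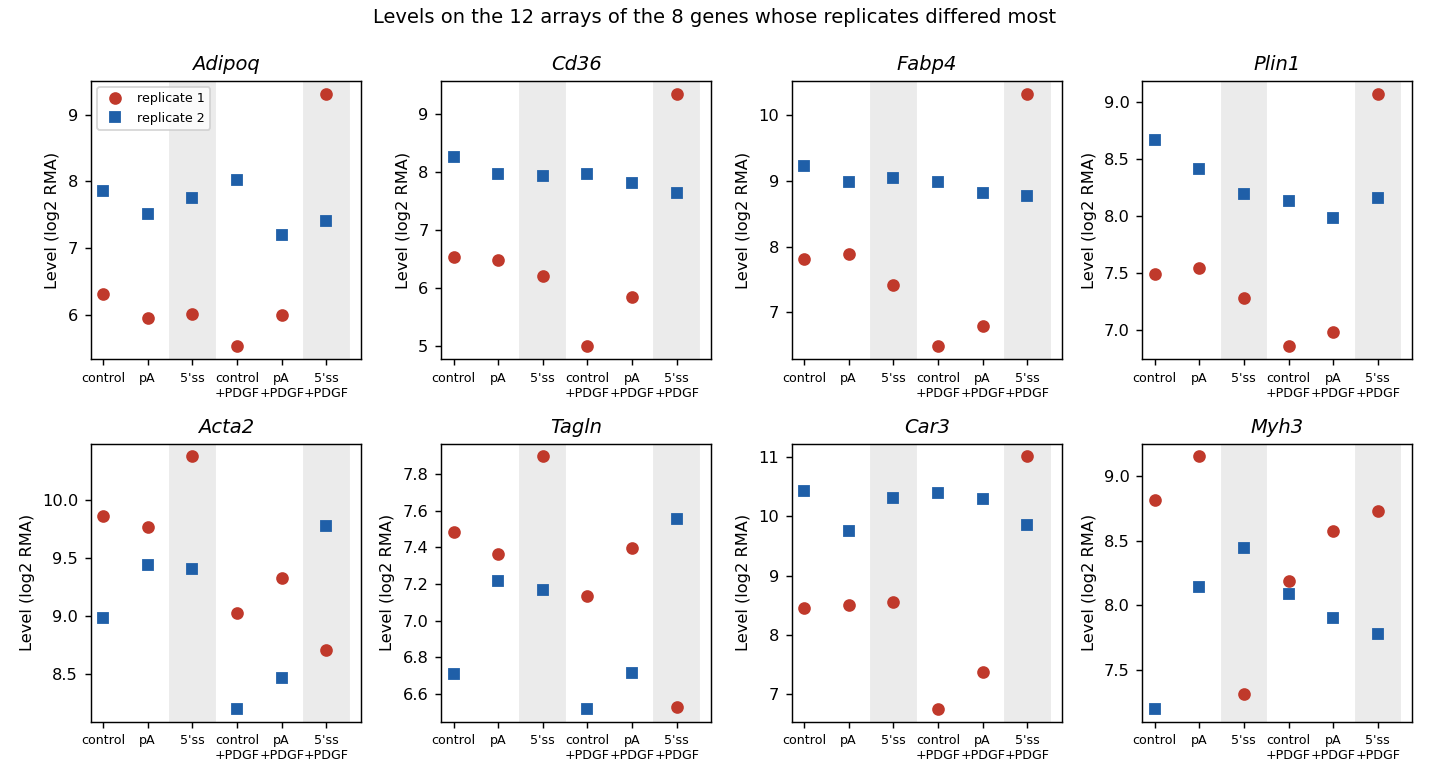
Level (log2 RMA, y axis) on each of the 12 arrays of the 8 genes whose change differed most between the 5'ss AMO replicates. Circles are replicate 1, squares replicate 2, and grey bands mark the 5'ss AMO groups. Adipoq, Cd36, Fabp4, Plin1 and Car3 are low on all replicate 1 arrays but that with 5'ss AMO plus PDGF-AA, where Adipoq reads 9.31.

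Most contractile and matrix genes of myofibroblasts were lower with PDGF-AA in replicate 1 and higher in replicate 2. Acta2, smooth muscle α-actin, read 10.37 and 9.41 alone and 8.70 and 9.77 with PDGF-AA, a change of -1.67 and 0.37. Tagln, the actin-binding protein transgelin, read 7.90 and 7.17 alone and 6.53 and 7.55 with PDGF-AA. For both genes replicate 1 alone was the highest of all 12 arrays. The median of 16 myofibroblast genes was -0.29 in replicate 1 and 0.063 in replicate 2, with 11 and 4 members below 0, so neither direction held in both pairs. The mean level of the list was highest of all 12 arrays in replicate 1 with 5'ss AMO alone (8.99), while the 8.60 of replicate 1 with PDGF-AA lay within the 8.57 to 8.91 of the 8 arrays with other AMOs. Cnn1, calponin, was the highest member at 0.25 and 0.10.

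Many contractile genes are known targets of serum response factor, which binds the CArG box. A CArG box, searched on both strands, was present in the promoter window (250 bases before to 50 after the start) of 4 of 14 myofibroblast genes with a window in RefSeq (Cnn2, Fhl2, Myl9 and Vcl), and in 1.63% of all 32851 windows. The first count is of genes and the second of windows, and a gene with several windows has more chances of a match. The windows of Myl9, a myosin light chain, and Fhl2, a LIM-domain cofactor with 2 start sites, are shown because both genes were lower in replicate 1 only (RefSeq, GRCm38.p6, chr2:156775214-156775513 on the + strand and chr1:43163912-43164211 on the - strand, match in capitals).
Myl9: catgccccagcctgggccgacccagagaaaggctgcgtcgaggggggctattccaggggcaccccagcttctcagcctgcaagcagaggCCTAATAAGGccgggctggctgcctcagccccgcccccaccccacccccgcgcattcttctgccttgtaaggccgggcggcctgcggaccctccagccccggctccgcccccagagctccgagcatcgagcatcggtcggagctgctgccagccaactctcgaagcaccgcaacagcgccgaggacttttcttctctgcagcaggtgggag
Fhl2: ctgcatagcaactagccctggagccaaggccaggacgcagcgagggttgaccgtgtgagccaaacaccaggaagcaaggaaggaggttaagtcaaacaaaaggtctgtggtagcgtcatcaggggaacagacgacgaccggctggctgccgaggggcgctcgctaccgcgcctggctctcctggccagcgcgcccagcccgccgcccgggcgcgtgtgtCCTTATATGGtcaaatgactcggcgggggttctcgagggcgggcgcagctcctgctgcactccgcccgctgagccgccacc
Myl9 read 7.72 and 7.25 alone and 6.74 and 7.31 with PDGF-AA, a change of -0.98 and 0.061. Fhl2 changed by -0.45 and 0.13. A match describes these letters and is not evidence of binding.

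Some matrix genes outside the collagens were lower in replicate 1 only. Tnc, tenascin C, changed by -1.41 and 0.065, Mfap4, an elastic fibre protein, by -1.48 and 0.14, and Aspn, a proteoglycan, by -1.04 and -0.0013. Over 36 matrix genes outside the collagens the median was -0.059 in replicate 1 and 0.0066 in replicate 2. With 16 of 36 above 0 in replicate 1 and 19 of 36 in replicate 2, the list as a whole lay near the 49.3% and 48% of all clusters. At least 0.2 lower in both pairs were 3 of 36, namely Postn, Fbln1 and Mgp. Fbln1, fibulin 1, read 10.41 and 10.55 alone and 10.13 and 10.26 with PDGF-AA. Mgp, which inhibits calcification, read 10.60 and 10.67 alone and 10.36 and 10.39 with PDGF-AA. Neither gene overlapped between groups, where 10.5% of all clusters did not overlap in this direction. Both genes were picked out here by their change on the same arrays. Mgp was also lower with control AMO (-0.63 on average) and pA AMO (-0.35). Tnxb was the highest member at 0.88 and 0.10.

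The 20 collagen genes had a median of -0.22 in replicate 1 and 0.060 in replicate 2. Col1a1, the main fibrillar collagen chain, read 12.45 and 12.15 alone and 11.90 and 12.32 with PDGF-AA, and Col3a1 13.05 and 13.04 alone and 12.95 and 13.00 with PDGF-AA. Col5a2 was the lowest at -0.56 and -0.024. Col6a3, a chain of collagen VI, was the 1 member at least 0.2 higher in both pairs, from 10.19 and 10.38 to 10.56 and 10.61. Col15a1, a basement membrane collagen, was at 0.89 and 0.10. Of 22 proteases and inhibitors 14 were below 0 on average, 15 in replicate 1 and 14 in replicate 2, with Adam12 lowest (-0.71 and -0.027), Mmp2, a gelatinase, at -0.15 and -0.12, and Adamts1 highest (0.14 and 0.22).

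Cell cycle genes were lower in replicate 1 and slightly higher in replicate 2. Of 45 genes 39 were below 0 in replicate 1 (50.7% of all clusters) and 13 in replicate 2 (52%), with medians of -0.23 and 0.045. Mki67, the proliferation marker Ki-67, read 8.66 and 8.41 alone and 8.38 and 8.57 with PDGF-AA. Ccnd1, cyclin D1, which growth factors induce in early G1 phase, changed by -0.39 and 0.36, against an average of 0.38 with control AMO and 0.36 with pA AMO. The mitotic kinesins Kif20a (-0.29 and -0.20) and Kif11 (-0.40 and -0.13) and the spindle protein Nusap1 (-0.20 and -0.30) were lower in both pairs. Cdc6, which loads the replicative helicase, was higher in both (0.16 and 0.21).

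Myogenic and sarcomere genes, which mark muscle cells in the cultures, were higher in replicate 1 and lower in replicate 2. Their medians were 0.48 and -0.17, with 22 of 27 above 0 in replicate 1 (49.3% of all clusters) and 4 of 27 in replicate 2 (48%). Myh3, the embryonic myosin heavy chain, read 7.31 and 8.45 alone and 8.73 and 7.78 with PDGF-AA. Actc1, cardiac α-actin, changed by 1.27 and -0.29, Des (desmin) by 0.96 and -0.25, and Mymk, which fuses myoblasts, by 1.04 and -0.27. Myod1 was the 1 member at least 0.2 higher in both (0.48 and 0.20), and Ckm the lowest (-0.22 and -0.17). The carbonic anhydrase gene Car3, which both muscle and fat express, went from 8.56 and 10.30 to 11.01 and 9.86.

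The lists differed in whether the array of 5'ss AMO plus PDGF-AA replicate 1 stood apart from the other 11. Its mean level was the highest of all 12 arrays for adipocyte genes (8.59) and the lowest for cell cycle genes (7.32) and for matrix genes outside the collagens (10.53). It was also the lowest for cholesterol synthesis (9.11), immediate early (8.27), MAPK feedback (7.78), matrix protease (9.47) and interferon response genes (8.70). The next lowest arrays were at 9.14, 8.29, 7.81, 9.51 and 8.71. For myogenic genes the array of 5'ss AMO plus PDGF-AA replicate 1 was at 7.22, within the 6.57 to 7.56 of the 8 arrays with other AMOs. Replicate 1 with 5'ss AMO alone was at 6.75. The share of the makeup of these cultures in the values was not tested.

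**Figure D5:**
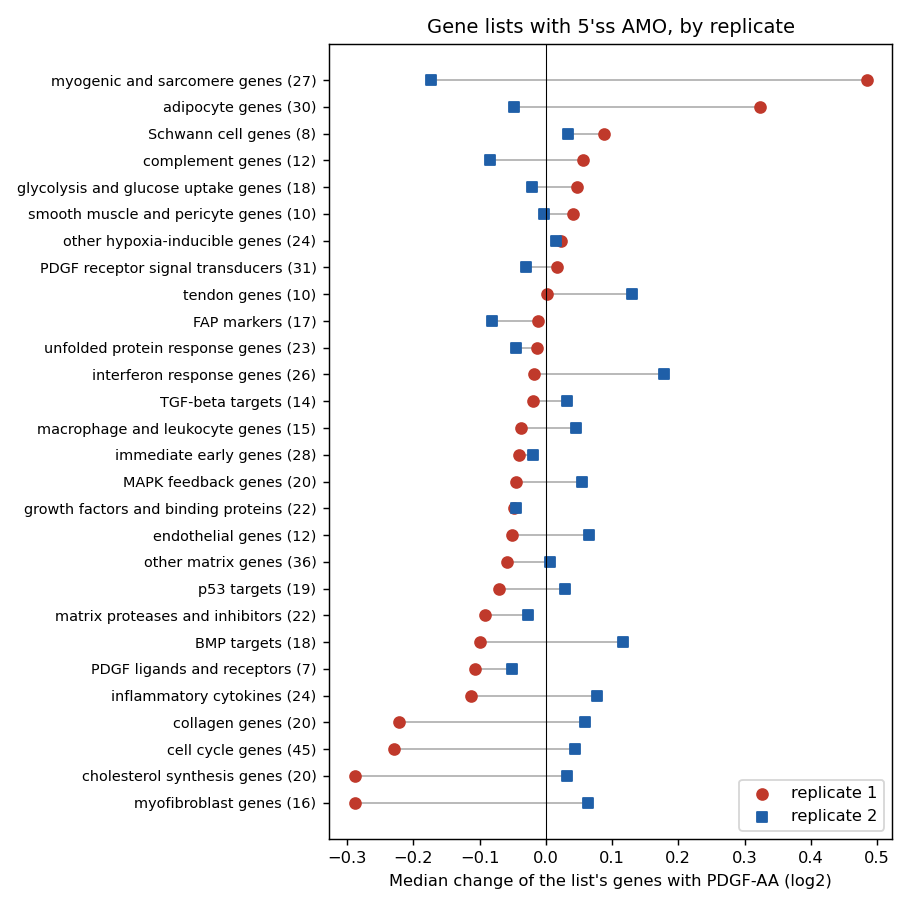
Median change with PDGF-AA (log2, x axis) of the measured genes of each list with 5'ss AMO, in replicate 1 (red circles) and replicate 2 (blue squares); the number of genes is in parentheses. Myogenic and adipocyte genes are highest in replicate 1 (0.48 and 0.32) and below 0 in replicate 2, and the myofibroblast, cholesterol synthesis, cell cycle and collagen lists are lowest in replicate 1 and above 0 in replicate 2.

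Interferon response genes were higher in replicate 2 only. Their median was -0.018 in replicate 1 and 0.18 in replicate 2. Above 0 were 12 and 21 of 26, where 49.3% and 48% of all clusters were. The sequence TTTCNNTTTC, the core of the interferon-stimulated response element, searched on both strands, was present in the promoter windows of 13 of 25 genes of the list and in 3.44% of all windows. Here too genes are set beside windows, and a gene with several windows has more chances of a match. The windows of Ifit3 and Rsad2, both antiviral genes, are shown as members with a large replicate 2 change (RefSeq, GRCm38.p6, chr19:34583279-34583578 on the + strand and chr12:26456403-26456702 on the - strand, matches in capitals).
Ifit3: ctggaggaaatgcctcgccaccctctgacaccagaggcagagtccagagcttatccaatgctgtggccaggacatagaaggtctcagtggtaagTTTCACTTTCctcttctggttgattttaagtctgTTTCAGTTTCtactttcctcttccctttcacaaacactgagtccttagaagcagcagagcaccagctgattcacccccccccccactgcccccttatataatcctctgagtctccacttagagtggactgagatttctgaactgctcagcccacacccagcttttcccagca
Rsad2: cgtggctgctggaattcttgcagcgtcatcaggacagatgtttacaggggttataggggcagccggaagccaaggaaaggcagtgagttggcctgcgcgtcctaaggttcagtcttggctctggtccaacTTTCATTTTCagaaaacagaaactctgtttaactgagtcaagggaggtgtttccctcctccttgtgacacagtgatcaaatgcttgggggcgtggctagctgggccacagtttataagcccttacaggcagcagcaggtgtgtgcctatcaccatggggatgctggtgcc
Ifit3 read 10.10 and 10.69 alone and 10.07 and 11.32 with PDGF-AA, a change of -0.032 and 0.63. Rsad2 read 7.29 and 7.89 alone and 7.12 and 8.56 with PDGF-AA. Replicate 2 with PDGF-AA was the highest of the 4 arrays for both.

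Ifit1 changed by 0.035 and 0.54, and Mx1, an antiviral GTPase, by -0.33 and 0.97. Mx2 was the 1 member at least 0.2 higher in both pairs (0.42 and 0.48), and Bst2, which tethers virions, the lowest (-0.19 and -0.18). The mean level of the 26 genes was 8.71 and 8.96 with 5'ss AMO alone and 8.70 and 9.19 with PDGF-AA, against 9.07 to 9.88 on the 8 arrays of the other AMOs. Among inflammatory genes Cxcl10 changed by -0.14 and 0.73, with a median of -0.11 and 0.078 over 24 such genes, while Ccl5, a chemokine for T cells, was lower in both pairs (-0.091 and -0.60).

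Other growth factor and complement genes had few even changes. Of 22 growth factors and binding proteins 12 were below 0 on average, 13 in replicate 1 and 12 in replicate 2, and Igf1 was the 1 member at least 0.2 lower in both pairs. Igf2 was at 0.83 and -0.15. Igfbp3, which binds IGFs, was at -0.50 and 0.062 and Gas6, a ligand of TAM receptors, at 0.022 and -0.079, against averages of -0.94 and -0.55 with control AMO. Of 12 complement genes 7 were above 0 on average, 7 in replicate 1 and 3 in replicate 2, with C4b at 0.66 and -0.10, C7 at -0.50 and -0.041 and Masp1 as given above.

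The PDGF-AA change of tendon genes was above that with the other AMOs in most members. Its median was 0.035 with 5'ss AMO, -0.25 with control AMO and -0.11 with pA AMO. In both pairs 7 of 10 lay above the same-numbered control AMO change, where 21.2% of all clusters did. Comp, a matrix protein of cartilage and tendon, read 9.95 and 10.18 alone and 9.82 and 10.47 with PDGF-AA, a mean change of 0.076 (SE 0.29), against -1.34 with control AMO and -1.36 with pA AMO. The difference from control AMO was 1.42 (SE 0.41, 95% interval 0.50 to 2.34). Fmod, a collagen-binding proteoglycan, changed by -0.28 and 0.22, and differed from control AMO by 0.68 (SE 0.20). Neither of these differences passed in limma, where 0 of 21789 clusters did. Kera was dim and at 0.48 and 0.49.

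TGF-beta genes had a median of -0.020 in replicate 1 and 0.032 in replicate 2, and BMP genes of -0.099 and 0.12. Ccn2, a matricellular protein induced by TGF-beta, read 10.59 and 10.08 alone and 9.89 and 10.58 with PDGF-AA. Tgfb1 was the lowest of 14 TGF-beta genes (-0.30 and -0.087) and Tgfbr1 the highest (0.34 and -0.12). Of 18 BMP genes 5 were above 0 in replicate 1 and 15 in replicate 2; Bmp2, dim on all 4 arrays, was the highest (0.21 and 0.41) and its antagonist Nog the lowest (-0.26 and 0.043). Of 19 p53 targets 7 were above 0 in replicate 1 and 12 in replicate 2, with Bbc3 highest (0.0067 and 0.41) and Plk3 lowest (-0.21 and -0.16). Of 23 genes of the unfolded protein response 13 were below 0 in replicate 1 and 19 in replicate 2, between Manf (-0.062 and -0.24) and Xbp1 (0.13 and 0.0043).

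Of 17 FAP markers 9 were below 0 in replicate 1 and 12 in replicate 2, with Smoc2 lowest (-0.39 and -0.081), Cd34 at -0.012 and -0.096, and Dpp4 at 0.88 and -0.19. Of the markers of other cells, 4 of 15 macrophage and leukocyte genes and 6 of 12 endothelial genes were above the dim mark. Macrophage and leukocyte markers had a mean level of 5.38 to 5.49 alone and 5.40 to 5.48 with PDGF-AA; S100a8 (0.63 and 0.25) and Fcer1g (-0.33 and -0.23) were at the ends, and Cd68 was at -0.27 and -0.19. The median change of all 15 was 0.013, and that of the 4 above the dim mark -0.21. Among endothelial genes Robo4 was highest (0.031 and 0.40) and Emcn lowest (-0.23 and -0.29). The pericyte genes Mcam (0.25 and 0.26) and Kcnj8 (-0.10 and -0.25) lay on opposite sides of 0. The Schwann cell genes Sox10 and Mal were at 0.17 and 0.21 and at -0.12 and -0.20. None of these passed.

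Tested directly, 0 of 21789 clusters differed in their PDGF-AA change between 5'ss AMO and control AMO in limma (0%; 643 clusters, 2.95%, at an unadjusted p under 0.05), and 0 between 5'ss AMO and pA AMO (0%; 418 clusters, 1.92%). With the replicate block the counts remained 0, with smallest adjusted p of 0.362 and 0.875. The smallest p among named genes against control AMO were those of Tspan18, a tetraspanin (difference 0.90, SE 0.19), Aldoc and Samd5. Tspan18 read 7.81 and 7.66 alone and 7.77 and 8.02 with PDGF-AA, whereas with control AMO it changed by -0.94 and -0.54. Samd5 was at -0.028 and 0.047 here and at -0.65 and -0.63 with control AMO. Against pA AMO they were those of Hsd3b6 (difference -2.27, SE 0.53), Lss and Hmcn1, a large extracellular matrix protein (difference -0.70, SE 0.16).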

How the data were processed

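The deposited values are log2 expression levels. The submitters' processing notes name RMA and Expression Console as the authors' software, with no version. RMA corrects background, quantile-normalizes arrays together and summarises probes. Array medians lay between 6.04 and 6.23, and values between 1.36 and 14.10. Scanner files were not used here. The number of arrays limits the precision, and p-values measure the spread between pooled replicates.

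Of 35556 transcript clusters, 21789 with exactly 1 symbol in the platform annotation were tested; 1621 have several symbols and 12146 are not listed there. Identifiers of 21698 were found in RefSeq (GRCm38.p6) and 0 symbols changed. All 12 arrays entered 1 model with a mean for each of the 6 groups. It was fitted with limma 3.58.1 in R 4.3.3 (empirical Bayes, no trend, not robust). Tests were two-sided with Benjamini-Hochberg adjustment and a threshold of 0.05. On simulated data the model recovered 9 of 50 changes of 0.5 and 44 of 50 changes of 1, with 6 false calls. The simulated noise was independent between arrays, without the replicate effect of the data. Changes near 0.5 would thus mostly be missed. Standard errors and 95% intervals are those of the model without a replicate block. They make no allowance for how genes were chosen.

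Replicate numbers recur in all groups, and no label says what they share. Deviations from group means correlated at 0.20 to 0.61 between same-numbered arrays in all 15 pairs of groups, and 12 of 12 arrays correlated best with their own number. By that check, from the data, the numbers pair the samples, and a replicate block was fitted as an alternative.

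Genes were named by rule: the 3 with the smallest p, the 12 highest and 12 lowest in both pairs among clusters above a mean of 6.10 (the 40 percent mark), the 8 with the largest gap between pairs, PDGF genes, the ends of each of 28 lists with up to 6 others, and the 3 with the smallest p for each difference between AMOs. Predicted or unnamed genes, pseudogenes and small RNAs were left out of the named sets other than the smallest p. A gene with several clusters entered a list by its brightest. The members and lists were chosen with earlier results of these data known. Promoter windows and gene names come from RefSeq tables. Alternatives were other normalizations, trend or robust moderation, filters and leaving out arrays.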

Additional observations from a re-analysis of the deposited data

Results flagged for a closer look

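Some genes had a PDGF-AA change of one direction in both pairs with 5'ss AMO and of the opposite direction in both pairs with control AMO and both pairs with pA AMO. Below 0 with 5'ss AMO and above 0 with the others were Hsd3b6 at a mean of -1.31, Masp1 at -0.63, Pde7b at -0.46, Lss at -0.34, Hmcn1 at -0.27, Kif20a at -0.25, Plod2 at -0.24, Tm7sf2 at -0.24, Aldoc at -0.14, Car9 at -0.10, Col5a2 at -0.29, Cd34 at -0.054 and Pdgfra at -0.048. For Car9, Pdgfra and Cd34 these changes were smaller than their standard errors of 0.155, 0.087 and 0.089. Above 0 with 5'ss AMO and below 0 with the others were Plin4 at 0.63, Pparg at 0.50, Col15a1 at 0.50 and Cebpa at 0.26, each larger in replicate 1 than in replicate 2, and that of Cebpa was smaller than its standard error of 0.28.

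The differences themselves were tested in limma and none passed. Before adjustment the p of the difference from control AMO was 0.0064 for Hsd3b6, 0.012 for Masp1, 0.0085 for Pde7b, 0.0011 for Car9 and 0.00082 for Aldoc, and the adjusted p was 1.00 for each. From pA AMO it was 0.0016 for Hsd3b6, 0.0042 for Masp1 and 0.0018 for Pde7b, with an adjusted p of 1.00. Hsd3b6 differed by -1.82 (SE 0.53) from its change with control AMO. These genes were flagged for opposite directions on the same arrays, so a difference in both pairs was fixed by the choice. The unadjusted p-values therefore describe the flagged genes and are no separate support.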

How the results depend on the processing

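The counts past the threshold, for the PDGF-AA change with 5'ss AMO and for its differences from control and pA AMO, stayed at 0 with the replicate block, with repeated quantile normalization, median centring, trend or robust moderation, with dim clusters left out, with all clusters, with the brightest cluster of each gene, and without each array; the block changed no call. The count for the change with 5'ss AMO was also 0 with only its 4 arrays, where the differences could not be fitted. At least 0.2 in both pairs, 330 clusters were higher and 298 lower; at 0.3 these were 70 and 52, without dim clusters 68 and 106, and with all clusters 1244 higher and 1016 lower. Leaving out an array breaks a pair, so that count has no such range. Medians that moved with other settings were those of immediate early genes (-0.0043 with median centring), hypoxia-inducible genes (0.010 with median centring, 0.011 with repeated quantile normalization), growth factors (-0.00041 with median centring, -0.0036 without dim clusters), macrophage genes (-0.21 without dim clusters) and smooth muscle genes (0.14 without dim clusters). With median centring Ccnd1 was at 0.0017, and with repeated quantile normalization Ptprc was at -0.0071; the cause was not tested. With 1 array or 1 pair of 5'ss AMO left out, list medians ranged as follows: PDGF ligands and receptors -0.12 to -0.040, PDGF receptor signal transducers -0.056 to 0.064, immediate early genes -0.082 to 0.023, MAPK feedback genes -0.045 to 0.10, glycolysis and glucose uptake genes -0.030 to 0.047 and other hypoxia-inducible genes -0.045 to 0.050. Further medians ranged over TGF-beta targets -0.092 to 0.033, growth factors and binding proteins -0.077 to 0.039, complement genes -0.084 to 0.071, interferon response genes -0.14 to 0.24, p53 targets -0.071 to 0.093 and unfolded protein response genes -0.045 to -0.013. Others of these medians ranged over endothelial genes -0.083 to 0.17, macrophage and leukocyte genes -0.067 to 0.066, smooth muscle and pericyte genes -0.0024 to 0.071, tendon genes -0.065 to 0.13 and Schwann cell genes 0.0056 to 0.11. The other 11 medians moved by less than the spread between pairs, some with a change of sign: BMP targets -0.099 to 0.13, FAP markers -0.081 to -0.012, adipocyte genes -0.048 to 0.33, cell cycle genes -0.23 to 0.045, cholesterol synthesis genes -0.29 to 0.047 and collagen genes -0.22 to 0.060. The rest were inflammatory cytokines -0.11 to 0.078, matrix proteases and inhibitors -0.091 to -0.019, myofibroblast genes -0.29 to 0.063, myogenic and sarcomere genes -0.17 to 0.48 and other matrix genes -0.062 to 0.0066. Of 148 named clusters 58 changed sign in at least 1 of these settings, with ranges of Adipoq -0.34 to 3.29, Cd36 -0.30 to 3.14, Fabp4 -0.28 to 2.91, Car3 -0.44 to 2.45, Myh3 -0.67 to 1.41, Acta2 -1.67 to 0.37, Plin1 -0.036 to 1.79 and Tagln -1.37 to 0.39. Ranges were Pdgfb -0.15 to 0.22, Pdgfc -0.22 to 0.011, Pdgfd -0.12 to 0.058, Pdgfrl -0.50 to 0.066, Tspan18 -0.038 to 0.36, Samd5 -0.034 to 0.054, Nck2 -0.093 to 0.49 and Ccn2 -0.70 to 0.50. Others spanned Fos -0.14 to 0.00018, Egr1 -0.028 to 0.0995, Myc -0.096 to 0.059, Dusp4 -0.52 to 0.18, Spry2 -0.026 to 0.16, Ccnd1 -0.39 to 0.36, Mki67 -0.28 to 0.16 and Slc16a3 -0.028 to 0.069. Sign changes also gave Hk2 -0.12 to 0.17, Car9 -0.26 to 0.054, Higd1a -0.044 to 0.23, Sqle -0.46 to 0.12, Srebf2 -0.10 to 0.11, Pck1 -0.38 to 0.14, Gpd1 -0.21 to 1.54 and Lipe -0.24 to 1.11. Wider or narrower ranges were Col1a1 -0.56 to 0.17, Tnc -1.41 to 0.065, Mfap4 -1.48 to 0.14, Myl9 -0.98 to 0.061, Fhl2 -0.45 to 0.13, Tgfbr1 -0.12 to 0.34, Nog -0.36 to 0.14 and Igf2 -0.15 to 0.83. In the same way the values ran over Igfbp3 -0.54 to 0.10, Gas6 -0.12 to 0.058, Cxcl10 -0.43 to 1.01, C4b -0.10 to 0.66, C7 -0.58 to 0.047, Ifit1 -0.21 to 0.78, Ifit3 -0.32 to 0.92 and Rsad2 -0.47 to 0.97. Further genes spanned Mx1 -0.34 to 0.98, Dpp4 -0.19 to 0.88, Dcn -0.072 to 0.17, Actc1 -0.29 to 1.27, Des -0.25 to 0.96, Mymk -0.27 to 1.04, Pecam1 -0.11 to 0.33 and Ptprc -0.12 to 0.13. The last ranges were Comp -0.25 to 0.40 and Fmod -0.28 to 0.22. The limits are the 2 pairs behind each change and the pair of replicate 1, without which the medians of adipocyte, myogenic and myofibroblast genes change sign. Depth is not defined for arrays, and levels under 6.10 were taken as dim.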
